A study of Mus musculus with 6 samples.

Results

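The mitochondrial respiratory chain genes examined here encode the nuclear subunits of complexes I to V and cytochrome c, with 2 assembly factors of complex I. Their probe sets were chosen by gene symbol, and no measured value entered the rule. The rule was set with earlier results of these data known. A probe set was a member if its only listed symbol began with Nduf, Uqcr or Atp5, if it was Sdha, Sdhb, Sdhc, Sdhd, Cyc1 or Cycs, or if it was Cox4, Cox5, Cox6, Cox7 or Cox8 with a subunit suffix. This gave 101 probe sets for 73 genes, out of 12422 probe sets for 8251 named genes on the array. Complex I had 38 probe sets, its assembly factors Ndufaf1 and Ndufaf4 had 4, complex II had 4, complex III had 9, cytochrome c had 1, complex IV had 23 and complex V had 22. A further 10 probe sets listed a chain gene together with a pseudogene or a near-identical copy and were left out, which removed Ndufs5, Ndufs6, Ndufa11, Ndufb4 and Cox7c. Among core subunits, Ndufs7, Ndufs8, Uqcrfs1 and Atp5b were not among the members and were not analysed here.

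Skin of GC13 mice, which carry a transgene that raises Hoxc13 expression, was set against skin of FVB mice, an inbred albino strain. Hoxc13 belongs to the homeobox genes and controls hair keratin genes. Total RNA came from whole skin at 5 days after birth, with 3 samples per line, each on 1 Affymetrix expression array. The promoter that drives the transgene, the number of founder lines, the sex of the animals and whether a sample was 1 mouse or a pool are not stated in the labels. P-values therefore reflect only how far these 6 samples varied, and part of that may be technical. No probe set was annotated to Hoxc13, so the transgene could not be checked.

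Deposited intensities summed to between 1640876 and 1736141 on the GC13 arrays and between 1626361 and 1644444 on the FVB arrays. For the Gapdh controls on the array, the 3′ over 5′ ratio, which grows when RNA is shortened or copied incompletely, was 2.22, 9.58 and 2.19 on the GC13 arrays and 0.931, 0.958 and 0.894 on the FVB arrays. All GC13 ratios lay above all FVB ratios, and GC13 replicate 2 stood far above the rest. The mean log2 ratio was 1.85 ± 1.22 in GC13 skin and -0.11 ± 0.05 in FVB skin (SD, n = 3 each; exact two-sided permutation p = 0.1, the smallest p that 3 arrays against 3 allow). The beta-actin ratio was 1.26, 3.80 and 1.43 on the GC13 arrays and 1.36, 1.26 and 1.16 on the FVB arrays (exact permutation p = 0.2). The Gapdh ratio thus moved with the line, while the beta-actin ratios of the lines overlapped. The part of these ratios in the values below was not tested. Of the 7 keratinocyte genes on the array, 5 were tested, and Krt1, Krt10, Flg and Lor among them were bright. Krt5 and Krt14 were dim in both lines and were not tested because of their low values. The 7 genes summed to 5842 to 10288 in GC13 skin and 5397 to 5607 in FVB skin, mostly from the bright ones. Because whole skin mixes epidermis and follicles with dermis, fat and a thin sheet of muscle, a lower level of a transcript cannot be told apart from fewer cells that make it.

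The respiratory chain sits in the inner mitochondrial membrane and passes electrons taken from NADH and succinate to oxygen. Complex I and complex II feed electrons through ubiquinone to complex III, cytochrome c carries them to complex IV, and the proton gradient that builds up drives complex V, the ATP synthase. Each complex but complex II also holds subunits encoded by mitochondrial DNA, whose symbols the rule does not take in. Many of the nuclear genes share promoter sites for NRF1, for GABP of the ETS family and for YY1, transcription factors known to act on genes of mitochondrial proteins. In skin, muscle fibres and brown fat are the cells best known for high respiratory capacity, while hair follicles are known for strong glycolysis even where oxygen is present.

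Promoter sequence did not enter the choice of the genes, and it was described for those with a listed promoter. RefSeq promoters of assembly GRCm38.p6, from 250 bases before to 50 bases after the gene start, were found for 59 of the 73 genes (64 promoters). The NRF1 motif, GCGCA and GCGC with any base N between them, searched on both strands, was present in 13 of 64 (20.3%), against 8.42% of 8408 promoters of all named genes on the array and 4.60% of all 32851 promoters given. The ETS motif CCGGAAG was present in 16 (25%, against 14.4% and 8.86%), and the YY1 motif AAGATGG in 8 (12.5%, against 6.46% and 6.34%). At least 1 of the 3 motifs stood in 33 promoters (51.6%), against 25.9% of those of array genes and 18% of all. The chain promoters and the array genes' promoters were alike in their CpG count, with medians of 19 and 18. A match is a description of letters and does not show that a factor binds. The stretches below were chosen to show the NRF1 motif in genes of complexes II, IV and V and the ETS and YY1 motifs once each, and capitals mark the motif, read 5′ to 3′ on the gene's strand.
Sdha, chr13:74350266-74350315, minus strand: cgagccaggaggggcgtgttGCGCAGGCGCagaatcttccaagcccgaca
Sdhd, chr9:50603899-50603948, minus strand: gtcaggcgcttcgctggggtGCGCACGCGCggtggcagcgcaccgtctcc
Cox6a1, chr5:115349091-115349140, minus strand: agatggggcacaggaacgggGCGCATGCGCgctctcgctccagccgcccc
Atp5g2, chr15:102671060-102671109, minus strand: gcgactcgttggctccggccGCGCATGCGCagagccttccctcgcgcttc
Ndufs3, chr2:90904722-90904771, minus strand: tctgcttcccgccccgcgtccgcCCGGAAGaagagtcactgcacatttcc
Atp5j, chr16:84835036-84835085, minus strand: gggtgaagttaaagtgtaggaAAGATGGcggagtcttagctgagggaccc
The NRF1 motif ended 45 bases before the gene start in Sdha, 69 in Sdhd, 152 in Cox6a1 and 32 in Atp5g2. The Sdha promoter held 3 copies of it and the Cox6a1 promoter 2. The values of these genes are given with their complexes.

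The comparison of GC13 with FVB asks whether added Hoxc13 came with a changed level of respiratory chain transcripts in skin. No member passed the threshold: of 86 tested probe sets for 70 genes, 0 were higher (background 0.0859%) and 0 lower (background 0.386%) at a Benjamini-Hochberg adjusted limma p under 0.05, and the smallest adjusted p was 0.204. Over all 9316 probe sets tested, 44 passed, or 0.472%, so fewer than 1 call would be found among 86 probe sets at that rate. At an unadjusted p under 0.05 there were 7 members (8.14%), against 15.5% of all probe sets tested. Fold changes are on the log2(intensity + 2) scale after each array was centred on its median, GC13 minus FVB, and intensities are as deposited.

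The members' log2 fold changes were small and lay on both sides of 0. Their median was 0.07, against 0.08 over all probe sets tested, and they ran between -1.61 and 0.67. Of the 86, 51 lay above 0 (59.3%) and 35 below, against 57.4% above 0 over all probe sets tested. Within ±0.5 lay 74 members (86.0%), against 74.2% of all probe sets tested. The 95% confidence interval of the change lay within ±1, for 63 members (73.3%), against 56.3% of all. For the other 23, a change of that size was not bounded by 3 arrays a group. Intensities of all GC13 arrays lay above all FVB arrays for 9 members (10.5%), against 10.6% of all probe sets tested, and below them for 11 (12.8%), against 12.3%. These shares were close to the background in both directions.

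**Figure D1:**
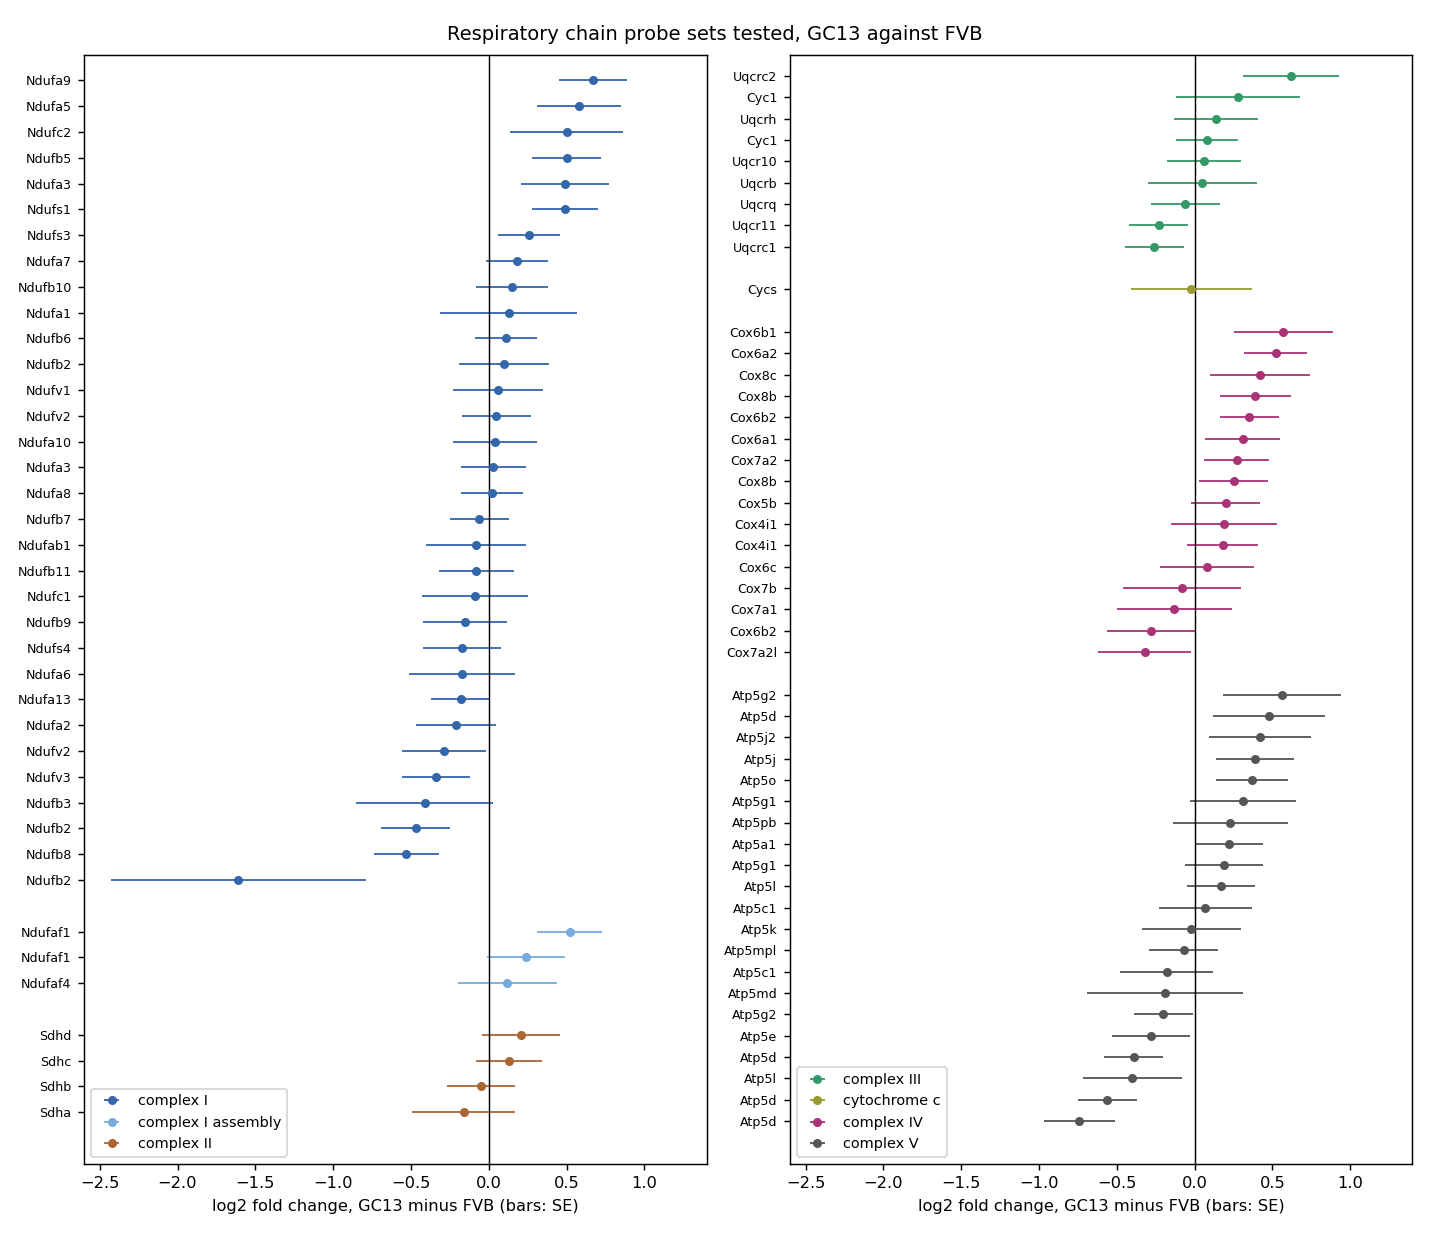
Log2 fold change of each of the 86 tested respiratory chain probe sets (GC13 minus FVB; points with SE bars from limma), ordered within each complex; a gene with several tested probe sets has several rows. Changes lie on both sides of 0 in complexes I, II, III, IV and V, and 1 probe set of Ndufb2 at -1.61 stands apart with the widest bar.

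Complex I, NADH dehydrogenase, had 32 tested probe sets with a median log2 fold change of 0.02, 17 above 0 and 15 below. Ndufa9, a supernumerary subunit of the arm that faces the matrix, had intensities of 998, 590.3 and 825 in GC13 skin, against 535, 539.7 and 486 in FVB skin. The groups did not overlap, with GC13 replicate 2 closest to FVB, and the log2 fold change was 0.67 ± 0.22 (SE; limma adjusted p = 0.217). Ndufs1, the largest iron-sulfur subunit, had 417, 447 and 417 in GC13 skin, against 335, 311 and 312 in FVB skin. All GC13 values were higher and close together, and the change was 0.49 ± 0.21 (SE; limma adjusted p = 0.319). The membrane arm subunit Ndufb5 gave 1721, 1485 and 1305 in GC13 skin, against 1128, 1104 and 1091 in FVB skin, again with no overlap, and a change of 0.50 ± 0.22 (SE; limma adjusted p = 0.331). Ndufa5, of the peripheral arm, gave 491, 634 and 417 in GC13 skin, against 349.5, 349 and 368 in FVB skin. Ndufs3, a core subunit whose promoter holds the ETS motif printed above, gave 537, 545 and 539 in GC13 skin, against 484, 452 and 486 in FVB skin. Both were higher on every GC13 array, by 0.58 (limma adjusted p = 0.349) and 0.26 (limma adjusted p = 0.574). Ndufa7 completed the 6 tested probe sets of complex I with no overlap and higher GC13 values, at a change of only 0.18. Those 6 were 18.8% of the 32, against 10.6% over all probe sets tested.

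In the other direction, 4 tested probe sets of complex I (12.5%) had all GC13 values below all FVB values, against 12.3% over all probe sets tested. Ndufb8, a membrane arm subunit, had 260.0, 166 and 208 in GC13 skin, against 333, 297 and 324 in FVB skin. Its log2 fold change was -0.53 ± 0.21 (SE; limma adjusted p = 0.296), the lowest of the 4. One of the tested probe sets of Ndufb2 gave 457, 273 and 366 in GC13 skin, against 509, 497 and 567 in FVB skin, with a change of -0.47 (limma adjusted p = 0.348). Ndufv3 and Ndufa13 were lower by smaller amounts, with log2 fold changes of -0.34 and -0.18. Ndufv1, which holds the NADH and flavin sites, gave 1186, 506 and 1209 in GC13 skin, against 909, 888 and 933 in FVB skin. Here GC13 replicates 1 and 3 lay above FVB and replicate 2 below it, and the mean change of 0.06 ± 0.29 (SE; limma adjusted p = 0.947) averages over that split. Ndufv2, its iron-sulfur partner, had a change of -0.29 on 1 probe set and 0.05 on a dimmer one. Ndufb10, Ndufb6 and Ndufb7, further subunits of the membrane arm, had changes of 0.15, 0.11 and -0.06, and Ndufa1, which lies on the X chromosome, had 0.13, all with overlapping groups.

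Ndufb2 shows how far probe sets of 1 gene could differ. The probe set with the most extreme change of any member gave 11.2, 35.6 and 2.49 in GC13 skin, against 17.6, 65.4 and 54.0 in FVB skin. FVB replicate 1 lay among the GC13 values, and its value of -1.61 ± 0.82 (SE; limma adjusted p = 0.39) had the widest error of the members. The other tested probe sets of the gene had changes of -0.47 and 0.10. Of 13 genes with several tested probe sets, 7 had changes of opposite sign: Ndufb2, Ndufv2, Cox6b2, Atp5c1, Atp5d, Atp5g2 and Atp5l. Of the 86 tested probe sets, 29 carry a name suffix that marks relaxed design rules, under which some probes can match further transcripts.

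The assembly factors of complex I were measured by 3 tested probe sets, all above 0 with a median of 0.24. Ndufaf1 had dim values of 10.9, 9.61 and 8.74 in GC13 skin, against 6.29, 7.20 and 6.29 in FVB skin, on 1 probe set, where the groups did not overlap and the change was 0.52 ± 0.21 (SE; limma adjusted p = 0.298). Its brighter probe set gave 45.3, 64.1 and 65.7 in GC13 skin, against 53.3, 57.9 and 43.2 in FVB skin, with overlap and a change of 0.24. Ndufaf4 gave 31.0, 58.7 and 38.2 in GC13 skin, against 40.4, 45.3 and 34.9 in FVB skin, a difference of 0.12 within the spread of the arrays.

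Complex II, succinate dehydrogenase, is also an enzyme of the tricarboxylic acid cycle, and its 4 genes showed no difference beyond the spread of the GC13 arrays. Sdha, the flavoprotein, had intensities of 65.1, 83.9 and 41.9 in GC13 skin, against 72.2, 81.1 and 64.3 in FVB skin. Sdhb, the iron-sulfur subunit, had 469.7, 266 and 418 in GC13 skin, against 416, 397 and 407 in FVB skin. Sdhc and Sdhd anchor the enzyme in the membrane, and Sdhd gave 437, 518 and 375 in GC13 skin, against 412, 387 and 399 in FVB skin. In all of these the GC13 arrays spread over both sides of the FVB values or overlapped them. The log2 fold changes were -0.16 for Sdha, -0.05 for Sdhb, 0.13 for Sdhc and 0.21 for Sdhd, with limma adjusted p-values between 0.726 and 0.941 and 95% confidence intervals within ±1 for all 4.

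Complex III, the cytochrome bc1 complex, had 9 tested probe sets with a median of 0.06. Its core proteins differed in sign. Uqcrc2 gave 401, 449 and 249 in GC13 skin, against 239.5, 265 and 225 in FVB skin. Uqcrc1 gave 791, 591 and 727 in GC13 skin, against 865, 844 and 928 in FVB skin. GC13 replicates 1 and 2 were high for Uqcrc2 while replicate 3 lay within the FVB range, and for Uqcrc1 all GC13 values lay below all FVB values. The log2 fold changes were 0.62 ± 0.31 (SE; limma adjusted p = 0.389) for Uqcrc2 and -0.26 ± 0.19 (SE; limma adjusted p = 0.559) for Uqcrc1. The small subunit Uqcr11 gave 430.3, 360.4 and 424 in GC13 skin, against 513, 480.0 and 502 in FVB skin, also without overlap, and a change of -0.23 (limma adjusted p = 0.598). Cyc1, the cytochrome c1 subunit, gave 1307, 1187 and 1158 in GC13 skin, against 1226, 1220.0 and 1183 in FVB skin, a difference of 0.08; a second probe set differed by 0.28. Uqcrq had a change of -0.06.

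Cytochrome c itself, the soluble electron carrier that also triggers the caspase cascade once released, was measured by 1 probe set of Cycs. It had intensities of 69.2, 136 and 60.1 in GC13 skin, against 91.6, 106 and 71.6 in FVB skin. GC13 replicates 1 and 3 lay below every FVB value and replicate 2 above, so that the mean change was -0.02 ± 0.39 (SE; limma adjusted p = 0.988). Without GC13 replicate 2 it was -0.47 (limma adjusted p = 0.173), still short of the threshold.

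Complex IV, cytochrome c oxidase, had 16 tested probe sets, of which 12 lay above 0, with a median log2 fold change of 0.23. In 2 of the 16 (12.5%) all GC13 values lay above all FVB values, against 10.6% over all probe sets tested. Cox6a2, the isoform of heart and skeletal muscle, had 253, 168 and 241 in GC13 skin, against 158, 161 and 156 in FVB skin. All GC13 values lay above FVB, replicate 2 by a small margin, and the change was 0.52 ± 0.20 (SE; limma adjusted p = 0.271), the smallest adjusted p of the complex. The ubiquitous partner Cox6a1 gave 1581, 1413 and 1102 in GC13 skin, against 1161, 1120.3 and 1161 in FVB skin, with GC13 replicate 3 below all FVB arrays and a change of 0.31. Cox7a2, a ubiquitous subunit, gave 1273, 1289 and 1165 in GC13 skin, against 1128, 1058 and 1071 in FVB skin, the other tested probe set of the complex without overlap, and a change of 0.27 (limma adjusted p = 0.588). Cox7a1, its partner in heart and skeletal muscle, gave 12.7, 27.4 and 12.01 in GC13 skin, against 18.4, 20.2 and 18.2 in FVB skin, where GC13 replicates 1 and 3 lay below FVB and replicate 2 above.

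The muscle isoforms were compared with their ubiquitous partners on each array. Only the change between groups was compared, because levels of different probe sets do not share a scale. Relative to the mean of the FVB arrays, the log2 difference of Cox6a2 and Cox6a1 was 0.21, -0.22 and 0.66 on the GC13 arrays and -0.02, 0.06 and -0.04 on the FVB arrays. That of Cox7a1 and Cox7a2 was -0.74, 0.24 and -0.68 on the GC13 arrays and -0.09, 0.12 and -0.03 on the FVB arrays. The pairs thus leaned in opposite directions, and in each pair GC13 replicate 2 went against the other GC13 arrays. The mean difference was 0.22 for the Cox6a pair (exact permutation p = 0.6) and -0.39 for the Cox7a pair (exact permutation p = 0.4; adjusted p = 0.6 for both over the 2 pairs compared), and without GC13 replicate 3 that of the Cox6a pair was -0.01. The Cox8b and Cox8a pair could not be compared because Cox8a was left out by the filter on low values, and Cox4i2 was not among the members.

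Cox8b, a further isoform of heart and muscle, was measured by a pair of probe sets with changes of 0.25 and 0.39. Cox8c and Cox6b2 are isoforms best known from testis. Cox8c gave 115, 52.9 and 147 in GC13 skin, against 62.7, 69.2 and 99.0 in FVB skin, with replicate 2 lowest of all 6 arrays. Cox6b2 had changes of 0.35 and -0.28 on its tested probe sets. Cox6b1, the ubiquitous partner of Cox6b2, had the largest change of the complex at 0.57 ± 0.32 (SE; limma adjusted p = 0.439) on a dim probe set, with 39.4, 20.1 and 52.3 in GC13 skin, against 16.6, 25.5 and 32.7 in FVB skin, and overlapping groups. Cox5b, a nuclear subunit present in all tissues, gave 766, 585 and 554 in GC13 skin, against 575, 579 and 571 in FVB skin, with GC13 replicate 1 farthest from the rest. Cox4i1 had changes of 0.18 and 0.19, and Cox6c of 0.08.

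Complex V, the ATP synthase, had 21 tested probe sets with a median of 0.07, 11 above 0 and 10 below. Of the tested probe sets, 5 (23.8%) had all GC13 values below all FVB values, against 12.3% over all probe sets tested. Of these 5, 3 measured Atp5d. No tested probe set of the complex had all GC13 values above all FVB values, against 10.6% over all probe sets tested. Atp5d, the delta subunit of the central stalk, had 116, 64.4 and 119.9 in GC13 skin, against 171, 160.0 and 182 in FVB skin, on the probe set with the smallest p of all members. Its log2 fold change was -0.74 ± 0.23 (SE; limma adjusted p = 0.204). A second probe set gave 89.1, 86.5 and 106 in GC13 skin, against 142, 143 and 154 in FVB skin, with a change of -0.56 (limma adjusted p = 0.229). Another gave 180.2, 170.3 and 194 in GC13 skin, against 238, 237 and 279 in FVB skin, with a change of -0.39 (limma adjusted p = 0.38). On all of these the GC13 arrays lay below the FVB arrays. The remaining tested probe set, a dim one, pointed the other way, with 20.7, 11.6 and 38.4 in GC13 skin, against 14.3, 11.6 and 22.2 in FVB skin, overlapping groups and a change of 0.48. A further probe set of Atp5d, left out by the filter on low values, had 3.78, 7.71 and 14.7 in GC13 skin, against 2.62, 3.49 and 3.40 in FVB skin, with all GC13 values above all FVB values. The 3 probe sets that agree in sign carry a suffix that marks relaxed design rules and measured the same samples, so they are not independent evidence.

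Atp5e, the epsilon subunit that sits beside delta in the central stalk, gave 441, 429 and 327 in GC13 skin, against 519, 472 and 532 in FVB skin. Atp5g2, which encodes the membrane ring subunit c, gave 157, 147 and 176 in GC13 skin, against 196, 187 and 197 in FVB skin. Both had all GC13 values below all FVB values, with changes of -0.28 (limma adjusted p = 0.615) and -0.20 (limma adjusted p = 0.648); a dim probe set of Atp5g2 had 0.56. Atp5g1, which encodes the same mature ring subunit, had changes of 0.19 and 0.31. The gamma subunit gene Atp5c1 had -0.18 and 0.07, and Atp5l, subunit g, had 0.17 and -0.40. Atp5a1, the alpha subunit of the catalytic head, gave 1489, 1584 and 1354 in GC13 skin, against 1355, 1348 and 1283 in FVB skin, with a change of 0.22. Atp5o, of the peripheral stalk, gave 1197, 760.2 and 812 in GC13 skin, against 725, 721 and 764 in FVB skin, with only GC13 replicate 1 far from FVB, and a change of 0.37 (limma adjusted p = 0.482). Atp5mpl had a change of -0.07, and Atp5j, whose promoter holds the YY1 motif printed above, one of 0.39.

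**Figure D2:**
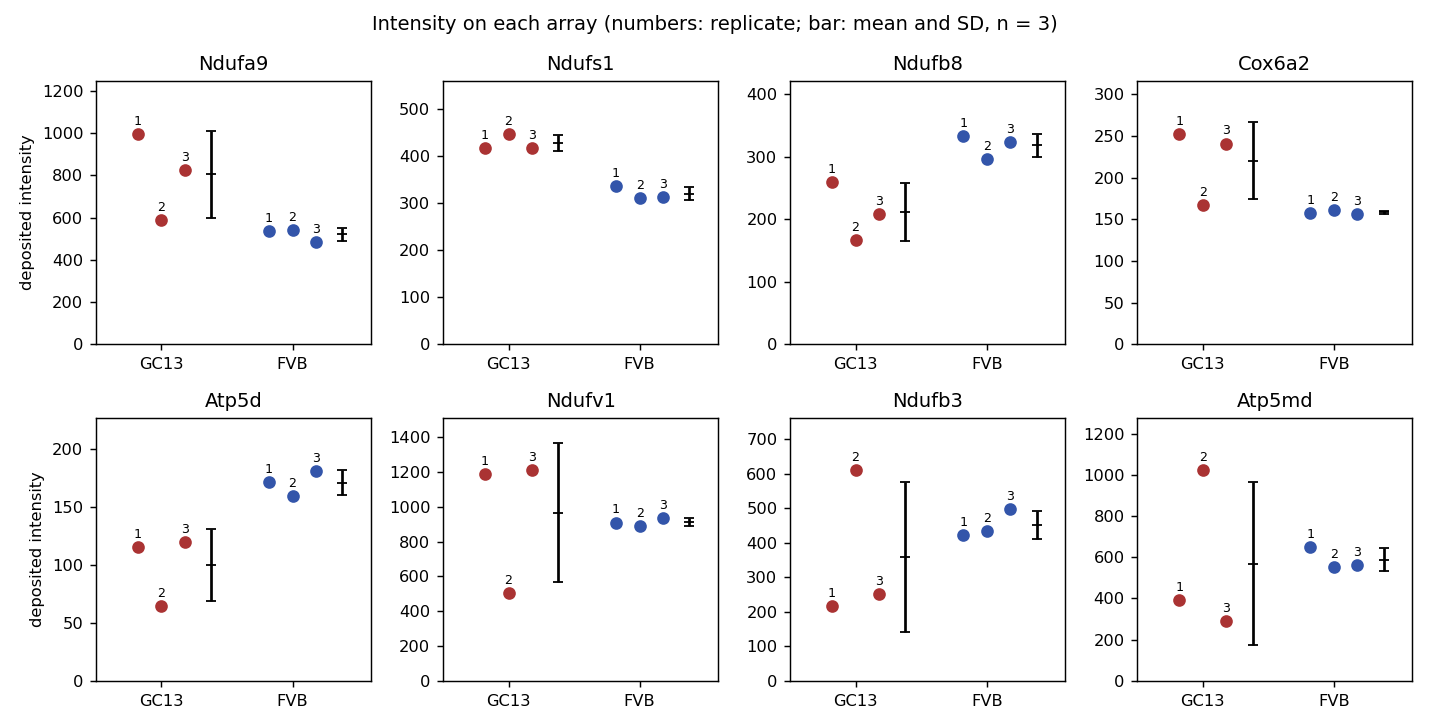
Deposited intensity of 8 respiratory chain probe sets on each array (points numbered by replicate; bars give mean and SD, n = 3 arrays per group; Atp5d is the probe set with the smallest p). Ndufa9, Ndufs1 and Cox6a2 are higher and Ndufb8 and Atp5d lower on every GC13 array, while in Ndufv1, Ndufb3 and Atp5md GC13 replicate 2 lies on the other side of the FVB values from replicates 1 and 3.

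A filter on low values, applied to all probe sets without regard to group, left out 15 of the 101 members. Cox5a, Cox8a and Ndufa12 had no other probe set that passed and were therefore not tested. Cox8a, the ubiquitous isoform, had 5.56, 2.82 and 3.38 in GC13 skin, against 0.744, 1.72 and 3.35 in FVB skin. The brighter probe set of Cox5a had 9.26, 1.91 and 13.9 in GC13 skin, against 3.34, 4.14 and 6.72 in FVB skin. Ndufa12 had 11.6, 5.29 and 10.3 in GC13 skin, against 3.82, 1.65 and 5.15 in FVB skin, which were low values with all GC13 above all FVB arrays. A dim probe set of Ndufb10 had 1.53, 3.44 and 1.31 in GC13 skin, against 0.507, 1.25 and 1.16 in FVB skin, also without overlap. Closest to the limit among those left out were the probe set of Cox5a just given and one of Cox6b2, with 9.73, 7.504 and 5.41 in GC13 skin, against 4.44, 4.73 and 4.12 in FVB skin. Closest among those kept were a probe set of Atp5g2 and the one of Atp5j2, with 5.71, 5.70 and 16.7 in GC13 skin, against 6.76, 4.82 and 7.10 in FVB skin. Signal over background is unknown at this level.

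The spread between arrays was much wider in GC13 skin than in FVB skin. The median SD of the members' log2 values was 0.38 over GC13 arrays and 0.09 over FVB arrays, and over all probe sets tested 0.41 and 0.15. The SD was larger in GC13 skin for 76 of 86 members (88.4%), against 84.8% of all probe sets tested. Set against the mean of the FVB arrays, the median member was at 0.05 on GC13 replicate 1, 0.25 on replicate 2 and -0.16 on replicate 3, against 0.07, 0.21 and -0.02 over all probe sets tested. GC13 replicate 2 was also highest and replicate 3 lowest in complexes I, III, IV and V and in cytochrome c. The medians on replicate 2 were 0.22, 0.24, 0.32 and 0.18 in complexes I, III, IV and V, and on replicate 3 they were -0.17, -0.31, -0.05 and -0.21. In complex IV replicate 1, at 0.31, was close to replicate 2. On the FVB arrays the median member lay between -0.02 and 0.04.

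**Figure D3:**
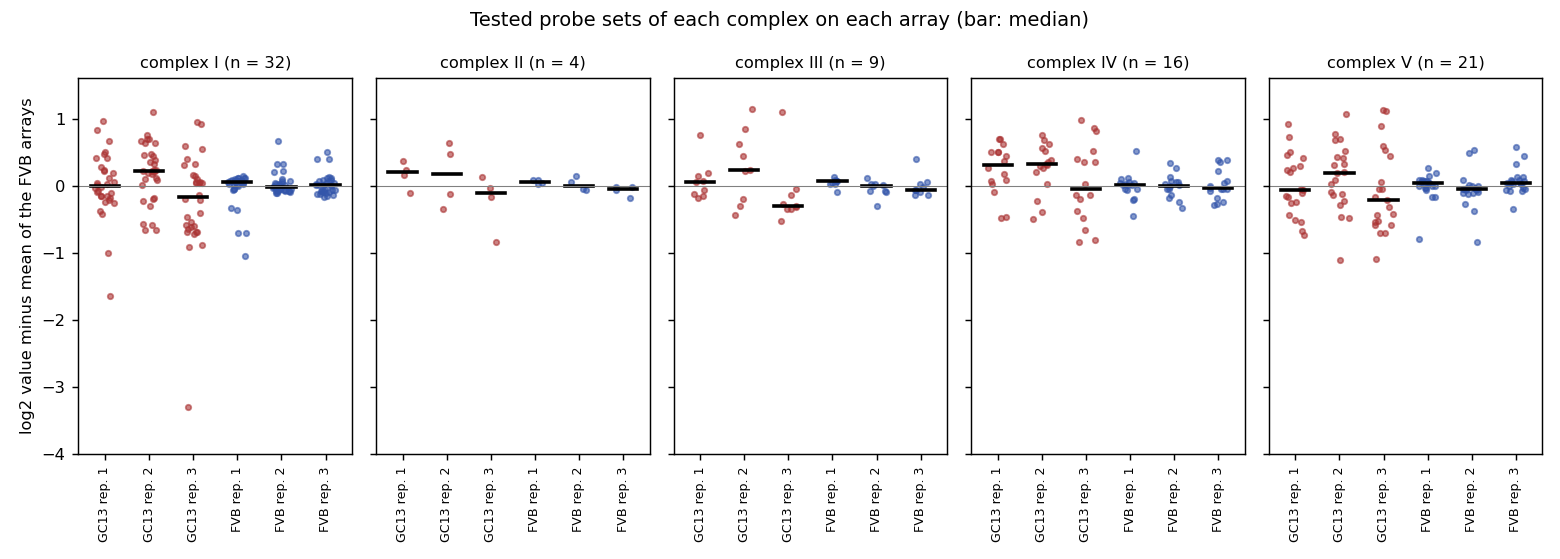
Log2 value of each tested probe set on each array minus its mean over the FVB arrays, by complex (dots are probe sets, black bars medians; n is the number of probe sets). FVB arrays lie near 0, GC13 arrays scatter widely, and in complexes I, III, IV and V the median is highest among the GC13 arrays on replicate 2 and lowest on replicate 3, with replicate 1 close to replicate 2 in complex IV.

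GC13 replicate 2, the array with the highest Gapdh ratio, differed from the other GC13 arrays on many members. For 20 of 86 members (23.3%) it lay on the opposite side of the whole FVB range from GC13 replicates 1 and 3, against 21.6% of all probe sets tested, a share close to that background. Ndufb3, a membrane arm subunit of complex I, had 218, 610.2 and 251 in GC13 skin, against 424, 433 and 497 in FVB skin. Atp5md, a small subunit of complex V, had 393, 1021 and 289.8 in GC13 skin, against 651, 551 and 562 in FVB skin. In both, replicate 2 lay far above the other GC13 values and above all FVB values. Other genes with this pattern were Ndufv1, Sdhb and Sdhc, where replicate 2 was lowest, and Uqcrb, Cycs and Cox7a1, where it was highest.

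Without GC13 replicate 2, 6 members of 86 (6.98%) passed the threshold, against 14.8% of all probe sets tested. With 2 GC13 arrays left, 3 were higher, against 6% of all probe sets tested, and 3 lower, against 8.8%. Ndufa9 was higher by 0.78 (limma adjusted p = 0.0378), Cox6a2 by 0.61 (limma adjusted p = 0.0418) and a dim probe set of Atp5g1 by 0.70 (limma adjusted p = 0.0466). Ndufb3 had a log2 fold change of -0.96 (limma adjusted p = 0.016), and Cox7a2l, which helps to join complexes III and IV, -0.64 (limma adjusted p = 0.0492). Of the 4 tested probe sets of Atp5d, 1 passed, with -0.60 (limma adjusted p = 0.0418). Its other tested probe sets did not pass, with changes of -0.55, -0.44 and 0.77 (limma adjusted p = 0.0537, 0.0926 and 0.135). The members' median was then 0.00, and those of the complexes were -0.07 for complex I, 0.07 for its assembly factors, 0.05 for complex II, -0.13 for complex III, 0.17 for complex IV and -0.03 for complex V. Of the 6 that passed, Ndufb3, Cox7a2l and the Atp5g1 probe set had GC13 replicate 2 within or beyond the FVB values on the other side. Ndufa9, Cox6a2 and the Atp5d probe set that passed had non-overlapping groups with all 3 arrays.

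**Figure D4:**
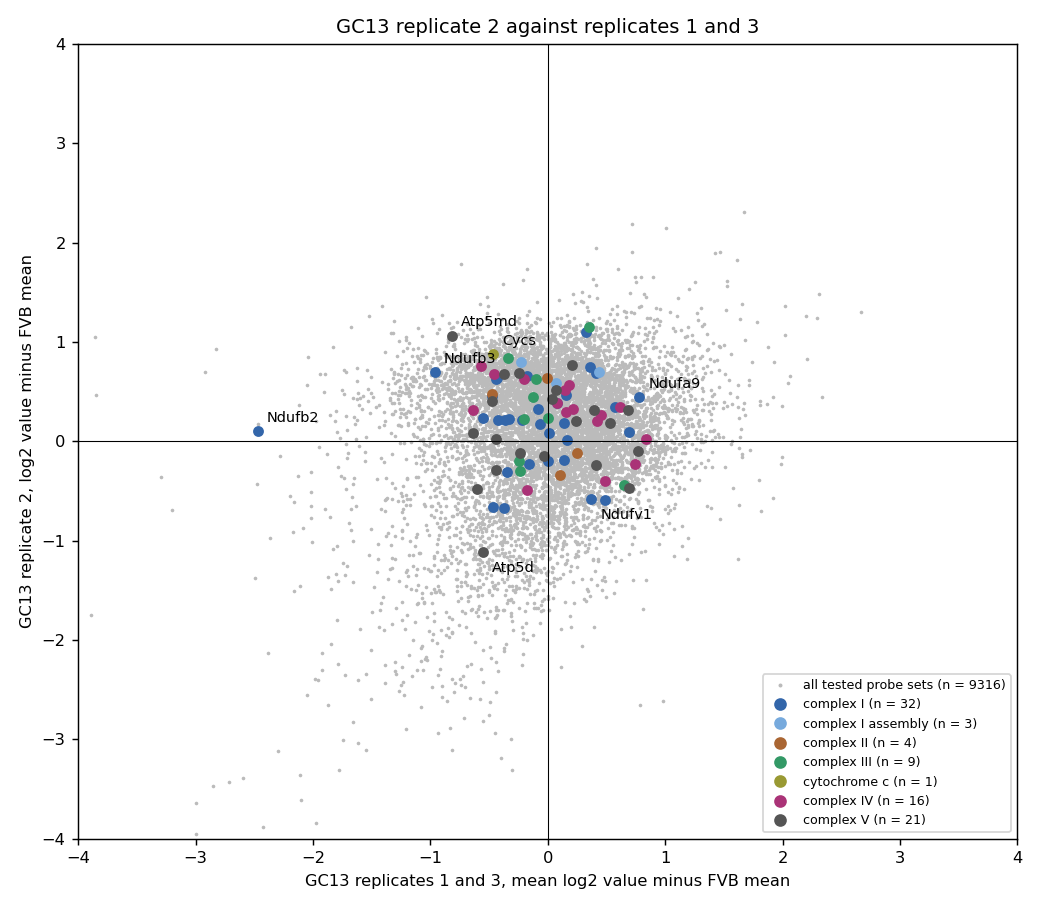
Log2 value on GC13 replicate 2 (vertical axis) against the mean of GC13 replicates 1 and 3 (horizontal axis), each minus the FVB mean, for all 9316 tested probe sets (grey) and the 86 members (coloured by complex). Members lie in all 4 quadrants among the grey points; Ndufb3, Atp5md and Cycs stand upper left, Ndufv1 lower right, and 2 grey points fall beyond the axis limit of 4.

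Other mitochondrial genes were read from the same fit, by lists chosen with earlier results of these data known, 1 probe set a gene. None of their members passed the threshold, and the medians below stand beside one of 0.08 over all probe sets tested. Assembly factors of the chain, counting 15 tested genes, had a median log2 fold change of 0.12, with 10 above 0. Cox18, which inserts a subunit of complex IV into the membrane, gave 306, 283 and 349.9 in GC13 skin, against 201, 199 and 202 in FVB skin, with a change of 0.70 ± 0.19 (SE; limma adjusted p = 0.152). The complex III assembly gene Uqcc2 gave 78.5, 46.2 and 61.9 in GC13 skin, against 105, 101 and 105 in FVB skin. Coa3, of complex IV, gave 184, 134 and 149 in GC13 skin, against 239, 234 and 248 in FVB skin. None of these groups overlapped, and the changes of Uqcc2 and Coa3 were -0.67 and -0.56 (limma adjusted p = 0.213 and 0.255).

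Enzymes of the tricarboxylic acid cycle, which supply NADH and succinate to the chain, had a median of 0.15 over 16 genes, 12 above 0. Dlst, a subunit of the 2-oxoglutarate dehydrogenase complex, gave 174, 175 and 206 in GC13 skin, against 296, 342 and 267 in FVB skin, a change of -0.62 ± 0.20 (SE; limma adjusted p = 0.218) of opposite sign to the median of its list. Fatty acid oxidation genes had a median of 0.06 over 14 genes, 9 above 0, and glycolysis genes 0.11 over 15 genes, 11 above 0. In the glycolysis list Eno3, the muscle enolase, gave 541, 316 and 542 in GC13 skin, against 293, 275 and 274 in FVB skin, with a change of 0.76 ± 0.22 (SE; limma adjusted p = 0.182), and Pgk1 and Hk2 had 0.69 and 0.61. All GC13 values of these 3 genes lay above all FVB values. The 5 tested antioxidant genes were all below 0 with a median of -0.10, and Gpx4, a peroxidase that protects membrane lipids, gave 49.1, 42.9 and 67.7 in GC13 skin, against 90.6, 104 and 117 in FVB skin, with a change of -0.88 ± 0.21 (SE; limma adjusted p = 0.128).

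Regulators of mitochondrial biogenesis had a median of -0.13 over 10 genes, 4 above 0 and 6 below. Gabpb1, the partner subunit of the ETS factor GABP, gave 142, 105 and 119.6 in GC13 skin, against 81.4, 68.5 and 77.2 in FVB skin. All GC13 values were higher, with a change of 0.74 ± 0.21 (SE; limma adjusted p = 0.163). Gabpa, the other subunit of GABP, went the other way with -0.25 and overlapping groups (limma adjusted p = 0.831). Tfb2m had -0.73 with overlap, and Pprc1 had -0.37 with all GC13 values below all FVB values (limma adjusted p = 0.458 and 0.481). Ppargc1a and Tfam were on the array but were not tested because of their low values. The 59 mitochondrial ribosomal protein genes had a median of -0.04, 26 above 0 and 33 below. Without overlap, 4 of 59 were higher, a share below the 10.6% of all probe sets tested. Lower without overlap were 12 of 59, a share above the 12.3% of all probe sets tested. Mrps5, a protein of the small subunit, gave 7.83, 7.60 and 4.72 in GC13 skin, against 23.8, 33.1 and 19.5 in FVB skin, and had the largest change of the list, -1.57 ± 0.30 (SE; limma adjusted p = 0.0797). Mrps11 and Mrpl41 had -0.96 and 0.88, of opposite sign. Protein import genes had a median of -0.12 over 16 genes, 12 below 0, and Tomm40, the channel of the outer membrane, gave 65.0, 41.7 and 59.6 in GC13 skin, against 106, 111 and 114 in FVB skin, with a change of -0.92 ± 0.20 (SE; limma adjusted p = 0.109). Timm13, of the intermembrane space, had -0.85. Carriers and pores had a median of -0.10 over 9 genes, 7 below 0, and Slc25a1, the citrate carrier, had -0.80 (limma adjusted p = 0.194).

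Leaving out GC13 replicate 2 moved these lists as well, with a median over all probe sets tested of 0.02. Past the threshold were 14.8% of all probe sets tested, 6% higher and 8.8% lower. Medians turned negative for assembly factors (-0.15), tricarboxylic acid cycle genes (-0.01) and fatty acid oxidation genes (-0.09). They were lower still for biogenesis regulators (-0.28), ribosomal proteins (-0.15), carriers and pores (-0.39), import genes (-0.31) and antioxidants (-0.37), and the glycolysis median was 0.28. The limma fit then called 1 ribosomal protein gene higher and 8 lower, and 4 import genes lower. It also called 3 glycolysis genes higher and 1 lower, 2 cycle genes higher and 1 lower, and 1 regulator in each direction. Of the remaining lists, 1 assembly gene was higher, 1 fatty acid oxidation gene and 1 antioxidant gene were lower, and no carrier or pore passed.

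Markers of cell types that skin can hold were read from the same fit, and their part in the values above was not tested. Skeletal muscle markers had a median of 0.28 over 23 tested genes, 17 above 0, and the 24 on the array summed to intensities of 5466 to 6473 in GC13 skin and 4979 to 5013 in FVB skin; none was at 0. Casq1, the calcium store protein of muscle, gave 478, 311 and 419 in GC13 skin, against 217, 207 and 226 in FVB skin, with a change of 0.94 ± 0.20 (SE; limma adjusted p = 0.108). Myh3, the embryonic myosin heavy chain, gave 24.1, 23.4 and 24.0 in GC13 skin, against 10.2, 10.9 and 12.6 in FVB skin, with a change of 1.04 ± 0.20 (SE; limma adjusted p = 0.0797). Ldb3, a protein of the muscle Z-disc, had 0.87 (limma adjusted p = 0.131). Myh4, a fast adult myosin, went the other way with 30.1, 70.7 and 26.8 in GC13 skin, against 102, 83.6 and 104 in FVB skin, with a change of -1.20. Brown fat markers had a median of -0.58 over 4 genes, 3 below 0, and summed to 174 to 245 in GC13 skin and 325 to 352 in FVB skin. Ucp1, which uncouples the chain in brown fat, gave 13.4, 30.9 and 16.7 in GC13 skin, against 58.8, 54.2 and 46.8 in FVB skin, with a change of -1.30 ± 0.36 (SE; limma adjusted p = 0.158), and Cidea had -0.77, both without overlap, while Dio2 had 0.91.

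General adipocyte markers had a median of 0.31 over 7 genes, 5 above 0, and summed to 2528 to 3334 in GC13 skin and 2387 to 2474 in FVB skin. The medians were 0.51 over 5 genes for keratinocytes, 4 of them above 0, and 0.49 over 6 genes for fibroblasts, all above 0. Hair follicle genes had a median of -0.47 over 9 genes, 6 below 0, and included the only called gene of any list with all 6 arrays, the inner root sheath keratin gene Krt72, which fell by 1.37 on the log2 scale (limma adjusted p = 0.0351). Without GC13 replicate 2 the medians were 0.18 for muscle, -0.90 for brown fat, 0.02 for adipocytes, 0.95 for keratinocytes, 0.38 for fibroblasts and -0.25 for hair follicle genes. The limma fit then called 6 muscle genes higher and 1 lower, and 1 brown fat gene higher and 2 lower. It also called 1 adipocyte, 3 keratinocyte and 2 fibroblast genes higher, and 3 hair follicle genes lower. Over all probe sets tested, 6% were called higher and 8.8% lower in that fit.

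Eif2s3y, Uty and Xist, which mark male or female tissue, split the GC13 arrays. The Y-linked gene Eif2s3y had 3.25, 143 and 4.60 in GC13 skin, against 69.4, 98.9 and 79.6 in FVB skin. A further Y-linked gene, Uty, measured 4.87, 34.7 and 7.19 in GC13 skin, against 13.3, 15.2 and 13.8 in FVB skin. Xist, which is transcribed from the inactive X chromosome of females, had 9.15, 1.07 and 12.6 in GC13 skin, against 9.95, 11.9 and 11.7 in FVB skin. Replicate 2 was highest of the 6 arrays for Eif2s3y and Uty and lowest for Xist. GC13 replicates 1 and 3 lay below all FVB arrays for Eif2s3y and Uty, the same grouping of arrays as in Ndufb3 and Atp5md. The Y-linked gene Kdm5d did not show this split, with 3.09, 0.636 and 1.33 in GC13 skin, against 1.17, 1.31 and 0.515 in FVB skin. It was dim on every array and was not tested because of its low values. The part of sex in the values above was not tested.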

How the data were processed

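Total RNA of 3 GC13 and 3 FVB skin samples was read on 6 arrays, and the samples were grouped by their labels. The deposited values are intensities on a linear scale; how the authors produced and normalized them is not given in the sources used here. The 66 control probe sets were left out, and the other 12422 were set on log2(intensity + 2), where 2 was the rounded 10th percentile of all intensities. Because array medians differed by 0.345, above the limit of 0.2, medians were subtracted array by array. A filter then dropped the 25% with the lowest mean level, whatever their change, and 9316 were tested. The platform annotation gave the gene names, updated by Entrez identifier with RefSeq (GRCm38.p6): 10833 probe sets had 1 gene, of which 10817 matched, 396 had several and 1193 had none.

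The fit used lmFit and eBayes of limma 3.58.1 under R 4.3.3 with 1 term for the line. Two-sided p-values were adjusted over all 9316 probe sets by the Benjamini-Hochberg method, with a threshold of 0.05. Ratios and isoform pairs were compared by exact permutation in Python 3.11.15 with SciPy 1.17.1. The precision of every value is limited by 3 arrays a group. Other pseudocounts, filters, scalings, variance models, array weights, a replicate block and leaving out each array were tried.

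The members, gene lists and rules were chosen with earlier results of these data known. The text names, of each complex, the 4 tested probe sets with the smallest p and the 2 with the highest mean, tissue isoforms with their partners, core subunits, genes with probe sets of opposite sign or left out by the filter, and up to 3 genes of each list with the smallest p. Ndufa5, Ndufa7, Ndufa13, Ndufb3, Ndufv3, Uqcrb, Cox7a2l, Atp5e, Atp5j, Atp5j2, Atp5md and, of the muscle list, Myh4 lie outside that rule and were named after their values were seen.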

Additional observations from a re-analysis of the deposited data

How the results depend on the processing

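The number of respiratory chain probe sets past the threshold was 0 with all 6 arrays and stayed at 0 with pseudocounts of 1, 16 and 32, no filter, the lowest 50% left out, no centring, quantile normalization, a variance trend, a replicate block or 1 probe set per gene. With array weights estimated by limma it was 29, when 3850 of all probe sets passed, or 41.3%, against 33.7% of the members. The weights were 4.117, 0.107 and 0.329 for GC13 replicates 1, 2 and 3. For FVB replicates 1, 2 and 3 they were 2.757, 2.166 and 1.155. On the GC13 side that fit thus rested mostly on replicate 1, and its counts cannot stand for 3 arrays. Leaving out each array in turn gave 0 to 6 members, the 6 without GC13 replicate 2. Over all probe sets the count of 44 became 83 with pseudocount 16, 117 with pseudocount 32, 23 with the lowest 50% left out, 28 without centring and 78 with the replicate block. Leaving out each array in turn gave 0 to 1379: 1379 without GC13 replicate 2, 9 without GC13 replicate 1, 11 without GC13 replicate 3 and 0 without any 1 of the FVB replicates. The mean difference of the Cox6a pair ran between -0.01, without GC13 replicate 3, and 0.43, without GC13 replicate 2. Whether the replicate numbers pair the samples is unknown. Same-numbered arrays had correlations of -0.068, 0.18 and 0.357 of their deviations from the group means, and not every array correlated best with its own number. Correlations from 3 arrays a group cannot settle the pairing. The members' median ran between -0.04 with quantile normalization and 0.13, and between 0.00 and 0.19 with 1 array left out, so its sign is not settled. Of the complexes, complex IV had a median above 0 under every setting tried, between 0.13 and 0.35. The median over all probe sets tested was itself above 0 with all 6 arrays, at 0.08. Of the 16 tested probe sets of complex IV, 1 (6.25%) had an unadjusted limma p under 0.05, against 15.5% of all. All settings use the same arrays, so they are not independent evidence. Causes of these differences were not tested. Signal over background is unknown, so changes of dim probe sets are understated by the added 2 and uncertain.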

Other observations

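The 10 probe sets that list a respiratory chain gene together with a pseudogene or near-identical copy cannot be assigned to 1 transcript. Intensities are given here without a test for those of Ndufa11, Ndufs6 and Cox7c only. For Ndufa11 and its copy Ndufa11b, which stand for a membrane arm subunit of complex I, intensities were 389.5, 392 and 446 in GC13 skin and 528, 487 and 482 in FVB skin, with all GC13 values below all FVB values. Ndufs6 and its copy Ndufs6b, of complex I, had 684, 815 and 609 in GC13 skin and 561, 537 and 549 in FVB skin on 1 probe set, with no overlap. The other probe set of that pair gave 529.8, 344 and 503 in GC13 skin and 419.8, 398 and 439 in FVB skin, where GC13 replicate 2 lay below FVB and the other GC13 arrays above. Cox7c, a complex IV subunit listed with a pseudogene, had 2403, 2575 and 2412 in GC13 skin and 2384, 2270 and 2408 in FVB skin on 1 probe set. On the other it had 1331, 1316 and 2587 in GC13 skin and 1556, 1475 and 1641 in FVB skin. There GC13 replicates 1 and 2 lay below all FVB values and replicate 3 above them.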
